A study of Bos taurus with 8 samples.

Results

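Metallothioneins and a pair of metal transport genes were followed across the cell types of bovine muscle and of cultures grown from it. The members were the rows of the gene table with the symbols MT1A, MT1E, MT2A, ATOX1 and SLC30A1, which made 6 genes of 21880, because MT1E occurred under 2 identifiers. These were ENSBTAG00000038706, written MT1E-a below, and ENSBTAG00000001595, written MT1E-b. The other identifiers were ENSBTAG00000054808 for MT1A, ENSBTAG00000023659 for MT2A, ENSBTAG00000008340 for ATOX1 and ENSBTAG00000010909 for SLC30A1. The members were picked with their levels over cell types and timepoints known, so those levels are given as a description, with no test. Tests of the members were kept to the age of the donor, the origin of the culture and the phase of the cell cycle. These are not part of the rule that chose the members, but earlier results of these data were known when they were chosen. Timepoints were tested only for other metal genes.

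Metallothioneins are small proteins rich in cysteine that bind zinc and copper and buffer the free metal in the cell. Their genes are known to respond to zinc through the transcription factor MTF1, and many also respond to glucocorticoids. ATOX1 is a copper chaperone that hands copper to the copper pumps ATP7A and ATP7B, and SLC30A1 exports zinc through the plasma membrane and is itself a known target of MTF1.

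Single-cell RNA-seq had been carried out on semitendinosus muscle of 10 Belgian Blue donor cattle, 5 calves (donors 2, 4, 5, 7 and 10) and 5 adults (donors 1, 3, 6, 8 and 9). There was 1 library for each of 5 timepoints: Muscle (dissociated tissue), P0 (72 h in serum-free growth medium, before passaging) and passages 2, 5 and 8 (P2, P5 and P8). From P2 on, the cells of donors 1, 2 and 9 grew unsorted on fibronectin, those of donors 5, 6 and 10 had been sorted as satellite cells (SCs) and grew on laminin, and those of donors 4, 7 and 8 had been sorted as fibro-adipogenic progenitors (FAPs) and grew on collagen. Donor 3 contributed to Muscle only. Each timepoint was a library of its own, so a difference between timepoints and a difference between libraries cannot be told apart, whereas donors of different age were pooled within every library.

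The 36129 single cells kept by the authors comprised 4395 from Muscle, 9591 from P0, 8966 from P2, 10405 from P5 and 2772 from P8, from 9 or 10 donors each. Median depth was 4184 UMIs per cell in Muscle and between 18340 and 27239.5 in culture. Raw UMIs were summed per donor, cell type and timepoint where there were at least 10 cells, which gave 159 sums, and are given as CPM, the UMIs of a gene relative to all UMIs of that sum, after TMM scaling. Each UMI stands for 1 tagged 3′ end, so CPM values of different genes are counts of tags and were not divided by length. A lower sum can mean fewer cells with the transcript or less of it per cell, and these cannot be told apart from the sum alone. The deposited cell type names fitted their markers (PDGFRA, DCN, LUM and COL1A1 for FAPs, PECAM1 and CDH5 for vascular endothelial cells), except that the SC marker ITGA7 was highest in smooth muscle and mesenchymal cells (SMMCs) at Muscle and P0 and that PTPRC was highest in B/T/NK cells at Muscle. Some types at P0 had more of another type's markers than of their own: monocytes/macrophages had a median sum of 5071 CPM for the neutrophil markers against 1021 CPM for their own, LECs 1164 CPM for the VEC markers against 426 CPM, and SCs 1607 CPM for the FAP markers. The 4 SC markers MYF5, PAX7, ITGA7 and NCAM1 together had a median of 1030 CPM in SCs at Muscle and 164 CPM at P0. A set of 129 barcodes occurred in more than 1 library, and they were treated as separate cells.

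In muscle, metallothionein RNA was most abundant in SCs. The 4 metallothionein genes together took 0.327% ± 0.138 (SD, n = 10) of all UMIs of SCs and 0.0582% ± 0.0525 of those of FAPs. Lymphatic endothelial cells (LECs) had 0.164% ± 0.0998 (n = 4), and SMMCs, with 0.00396%, the least of the 7 types with several donors.

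MT2A made up most of that pool. In SCs of muscle its lowest donor value was 912 CPM, its median 1654 and its highest 3302. In FAPs the corresponding values were 68.2, 336 and 1154 CPM. Each of the 10 donors had more MT2A in SCs than in FAPs, with a median difference of 2.74 on the log2 scale, although the ranges over donors overlapped. In order of the mean, MT2A followed with 1934 ± 928 CPM in SCs, 1072 ± 647 in LECs, 444 ± 410 in FAPs, 176 ± 332 in B/T/NK cells, 98.9 ± 90.8 in vascular endothelial cells (VECs), 51.4 ± 52.3 in monocytes/macrophages and 25.3 ± 38.4 in SMMCs. Every neighbour in this order overlapped with the next.

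The same contrast appeared in single cells thinned to 2000 UMIs each. An MT2A UMI was found in 69.3% ± 10.4 of SCs, 25.9% ± 14.2 of FAPs, 12.2% ± 6.76 of B/T/NK cells, 4.29% ± 1.72 of VECs and 2.19% ± 1.95 of SMMCs. Without thinning the shares were 79.3% in SCs, 38.3% in FAPs and 4.40% in SMMCs. Shares as low as those of VECs and SMMCs were read as background. This is an assumption that was not tested, and MT2A in VECs ran from 7.77 to 260 CPM over donors. The cells used had median depths of 4009 UMIs for SCs, 6295 for FAPs and 3420 for SMMCs before thinning.

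MT1A, also a member of the metal-binding cluster, was concentrated in SCs still more. SCs of muscle ranged from 93.6 to 2496 CPM with a median of 588, and FAPs from 1.70 to 131 CPM with a median of 36.5. The highest SC value came from donor 9, in which 368 of 390 MT1A UMIs sat in 1 of 31 cells. MT1A was higher in SCs than in FAPs in 10 of 10 donors (median log2 difference 4.46), and an MT1A UMI was found in 25.03% of thinned SCs, 2.77% of thinned FAPs and 1.34% of thinned VECs.

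The pair of MT1E genes were far less abundant. MT1E-a was at 51.9 ± 37.2 CPM in SCs and 20.0 ± 16.6 CPM in FAPs of muscle, and MT1E-b at 108 ± 91.5 and 16.0 ± 13.9 CPM. SCs were higher than FAPs in 9 of 10 donors for MT1E-a and in 10 of 10 for MT1E-b. MT1A, MT1E and MT2A are near-identical neighbours in a gene cluster, and reads shared between them could have been assigned to the wrong copy or dropped. The split of the sum over the 4 genes is thus uncertain. Dropped reads would be missing from the sum as well, by an amount that is not known.

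ATOX1, the copper chaperone, had no such preference in muscle. It ranged from 54.8 to 134 CPM in SCs and from 55.7 to 129 CPM in FAPs, and 4 of 10 donors were higher in SCs. LECs had the highest mean (182 ± 91.2 CPM, n = 4) and B/T/NK cells the lowest (37.3 ± 26.5 CPM). SLC30A1, the zinc exporter, was close to the limit of detection in muscle, with means between 2.65 CPM in LECs and 13.3 CPM in VECs of muscle and an SLC30A1 UMI in between 0.667% and 2.53% of thinned cells in the 5 muscle types counted.

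**Figure D1:**
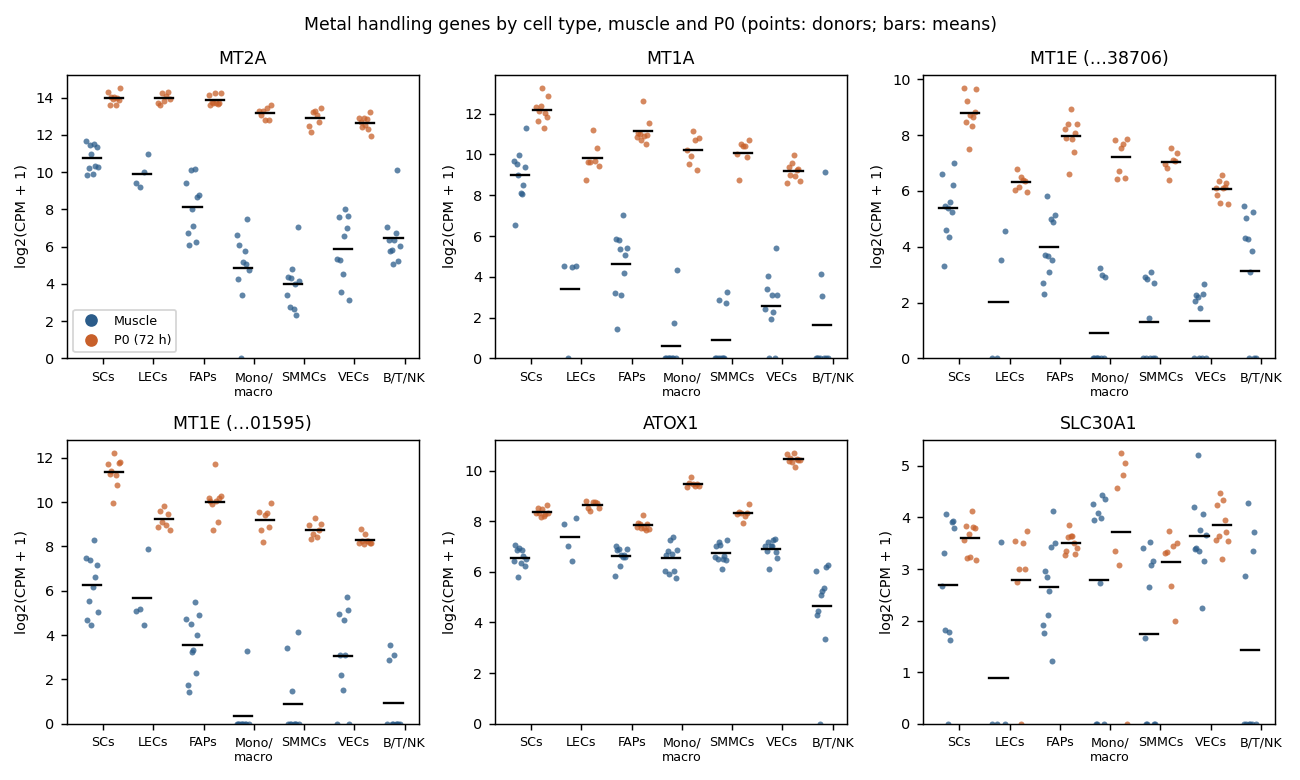
Levels of the 6 genes in 7 cell types of muscle (blue) and after 72 h of culture (orange), each point the sum of 1 donor as log2(CPM + 1) and each bar the mean of the points; the MT1E panels carry the last digits of the gene identifier. The orange points of MT2A lie above the blue ones in the 6 types present at both timepoints, and ATOX1 is highest in VECs at P0, at 1133 to 1643 CPM.

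After 72 h in culture, metallothionein RNA was high in every cell type measured. The 4 genes took 2.27% ± 0.518 of all UMIs of SCs (n = 9), 1.74% ± 0.274 of LECs (n = 7), 1.72% ± 0.395 of FAPs (n = 9), 1.09% ± 0.245 of monocytes/macrophages (n = 7), 0.943% ± 0.300 of SMMCs (n = 7) and 0.683% ± 0.149 of VECs (n = 9).

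MT2A in FAPs at P0 had a lowest value of 12300, a median of 13520 and a highest of 19430 CPM, all above the highest Muscle value. The fitted log2 fold change from Muscle to P0 was 4.96 (SE 0.54), or 31.1-fold, with P0 higher in 9 of 9 donors. In SCs, which started higher, it was 2.70 (SE 0.27), or 6.52-fold, from a range of 912 to 3302 CPM to a range of 12260 to 23430 CPM. VECs ranged from 3899 to 9673 CPM at P0, and no fold is given for them because their muscle level was read as background. Across the 9 FAP donors the MT2A fold between their own sums ran from 11.6 to 207, with a median of 51.4, and in SCs from 4.16 to 19.2, with a median of 12.6. The order of types by mean was SCs 16530, LECs 16160, FAPs 15090, monocytes/macrophages 9512, SMMCs 8023 and VECs 6602 CPM, each overlapping with the next.

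The less abundant metallothioneins followed MT2A. In FAPs the log2 fold changes were 5.81 (SE 0.50) for MT1A, 3.86 (SE 0.39) for MT1E-a and 6.25 (SE 0.51) for MT1E-b. Only 7, 8 and 6 of the 9 FAP donors, in the same order, had over 3 UMIs in muscle, so the size of these FAP values is uncertain. In SCs they were 2.45 (SE 0.47), 2.99 (SE 0.37) and 4.35 (SE 0.43), in the same order. P0 was higher in 9 of 9 donors for each of them, also in VECs, and on the scale of these fits only MT1A in SCs overlapped between the timepoints. VEC sums of muscle held few UMIs of MT1A and the MT1E genes, so their fitted values would depend on the prior count and are left out. A gene was called where its log2 fold change exceeded 1 in either direction at an adjusted p under 0.05, and as a background 43.4% of the 9208 genes tested in FAPs were called, 34.3% of 5221 in SCs and 35.1% of 5896 in VECs. The donors of P0 lay above those of Muscle with no overlap for 24.1%, 16.8% and 16.4% of genes, in the same order. Since the members were chosen on this contrast, nothing is read from these shares.

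The 4 FAP markers, which other types should lack, had a median sum of 4373 CPM in FAPs at P0, 1607 in SCs, 1508 in monocytes/macrophages, 1288 in SMMCs, 456 in VECs and 422 in LECs. In SCs of muscle they had been at 110 CPM and in FAPs of muscle at 22910 CPM. The part of free RNA in the P0 levels was not tested. Within that library the make-up of the pool also differed between types: MT1A was 19.8% ± 5.06 of metallothionein UMIs in SCs, 12.4% ± 3.64 in FAPs, 8.23% ± 2.67 in VECs and 5.66% ± 3.40 in LECs. The 7 dissociation response genes summed to a median of 16400 CPM in SCs and 5683 CPM in FAPs of muscle, against 605 and 537 CPM at P0, and their part in the contrast was not tested either.

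ATOX1 had another order of cell types. VECs went from 122 ± 27.4 CPM in muscle to 1397 ± 154 CPM at P0 (lowest 1133, median 1370, highest 1643), a log2 fold change of 3.16 (SE 0.12). Monocytes/macrophages went from 98.8 ± 38.8 to 716 ± 67.0 CPM. FAPs, at 230 ± 31.6 CPM, were lowest at P0, with a log2 fold change of 1.04 (SE 0.11), and SCs, at 329 ± 35.3 CPM, had 1.35 (SE 0.11). VECs did not overlap with monocytes/macrophages, nor these with LECs (402 ± 41.8 CPM), whereas LECs, SCs, SMMCs and FAPs overlapped as neighbours. The copper chaperone was thus highest in VECs, the type with the lowest mean MT2A at P0. SLC30A1 in FAPs had a log2 fold change of 0.63 (SE 0.26), with overlap and a higher P0 value in 7 of 9 donors, and was too low to be fitted in SCs and VECs.

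**Figure D2:**
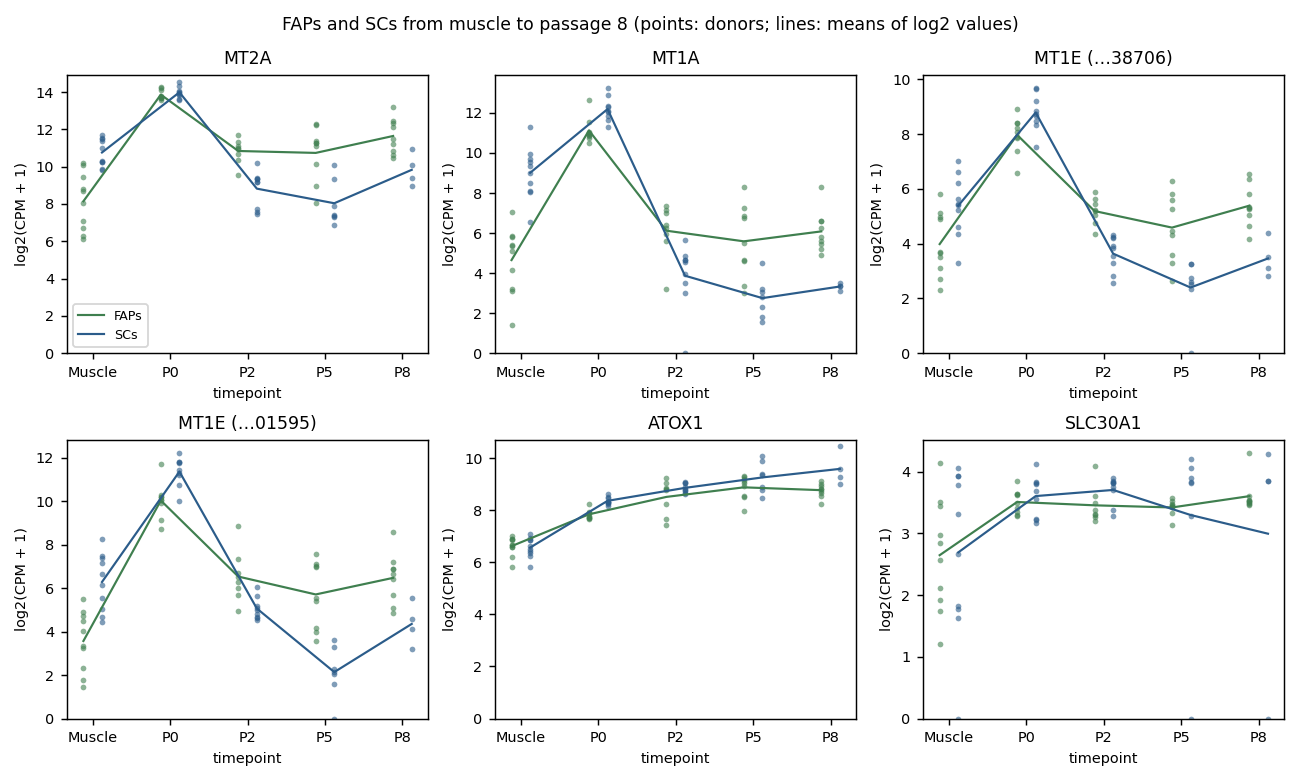
Levels of the 6 genes in FAPs (green) and SCs (blue) at the 5 timepoints, each point the sum of 1 donor as log2(CPM + 1), lines joining the means of the log2 values. The metallothioneins peak at P0 and the lines of FAPs and SCs cross between P0 and P2, whereas ATOX1 has its highest SC mean at P8 (830 CPM).

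From P0 to P2 metallothionein RNA was lower again in both SCs and FAPs. MT2A in SCs went from a median of 15940 CPM to one of 572 CPM (178 to 1193), a log2 fold change of -4.89 (SE 0.35). In FAPs it went from a median of 13520 to one of 2040 CPM (750 to 3330), a log2 fold change of -2.91 (SE 0.23). P2 was lower in 9 of 9 SC donors and 8 of 8 FAP donors. The log2 fold change of MT1A was -7.91 (SE 0.45) in SCs and -4.71 (SE 0.42) in FAPs. That of MT1E-a was -5.23 (SE 0.34) and -2.88 (SE 0.29), and that of MT1E-b -6.30 (SE 0.32) and -3.39 (SE 0.52). Whether SCs and FAPs differed in these changes was not tested. The muscle fibre markers ACTA1, CKM, MYLPF and TNNT3 had a median sum in SCs of 0.686 CPM at P0, 592 CPM at P2 and 1671 CPM at P5. Their part in the SC changes was not tested either. The donors did not overlap for 3 of the 4 genes in FAPs, where 8.26% of 11384 genes lay lower with no overlap and 19.3% were called, and for all 4 in SCs, where 4.24% of 9793 lay lower and 10% were called; nothing is read from these shares. ATOX1 was higher at P2, with 0.53 (SE 0.08) in SCs and 9 of 9 donors, and 0.82 (SE 0.20) in FAPs and 6 of 8 donors.

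Cells named SCs and FAPs stood in the other order from P2 on. MT2A was higher in SCs in 10 of 10 donors at Muscle and in 7 of 9 at P0, but in 0 of 8 at P2, 1 of 7 at P5 and 0 of 4 at P8. The median log2 difference, SCs over FAPs, was 2.74, 0.20, -1.73, -3.66 and -2.56 at the 5 timepoints. The exception at P5 was donor 4, whose SC sum held 10 cells of a sorted FAP culture. MT1A, MT1E-a and MT1E-b were higher in FAPs in all 8, 7 and 4 donors that had both types at P2, P5 and P8. Cells named SCs there also carried the 4 FAP markers, with a median sum of 7316, 5440 and 5594 CPM at P2, P5 and P8, against 25460, 31590 and 15210 CPM in FAPs. The 4 SC markers summed to 411, 421 and 279 CPM in SCs and to 12.3, 14.1 and 9.17 CPM in FAPs, and the part of these markers in the result was not tested. SCs and FAPs of 1 timepoint shared a library, but SCs were shallower, with median depths of 18203 against 24188 UMIs per cell at P0 and 23881 against 29540 at P2. In cells thinned to a common depth an MT2A UMI was found in 57.9% of FAPs and 32.7% of SCs at P2, in 52.9% and 21.0% at P5 and in 75.3% and 57.0% at P8, but these libraries held no type that should lack MT2A, so a background share is not known and nothing is read from them. ATOX1 was higher in SCs in 9 of 9 donors at P0 (median log2 difference 0.54), in 5 of 8 at P2 (0.19), in 4 of 7 at P5 (0.07) and in 4 of 4 at P8 (0.89).

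At later passages FAPs had MT2A at 1985 ± 783 CPM at P2, 2380 ± 1667 at P5 and 3873 ± 2638 at P8, and SCs at 542 ± 323 (n = 9), 368 ± 363 (n = 7) and 1043 ± 649 (n = 4). Between P2 and P8 MT2A in FAPs had a log2 fold change of 1.00 (SE 0.37) and was higher in 6 of 8 donors, where 1.19% of 10150 genes were called. These FAP values pool 3 kinds of culture. In sorted FAP cultures the MT2A medians at P2, P5 and P8 were 2008, 489 and 1568 CPM, with no steady rise. They were 1654, 2507 and 2855 CPM in unsorted cultures and 2700, 2671 and 5247 CPM in sorted SC cultures. The SC cultures at P2 were 2 donors with 12 and 19 FAPs. Between P2 and P5 MT1E-b in SCs had -2.86 (SE 0.38), with no overlap between donors, where 0.297% of 9780 genes lay lower with no overlap and 0.44% were called. Its P5 values were low, from 0 to 11.3 CPM. The members were chosen with their levels over timepoints known, so nothing is read from the shares of genes in these comparisons. ATOX1 in SCs was at 830 ± 404 CPM at P8 (519, 623, 761 and 1417 CPM in the 4 donors), against 441 ± 73.8 CPM in FAPs. The 2 lower SC values came from unsorted cultures with 12 to 54 SCs. The 2 higher ones came from sorted SC cultures with 25 to 36 SCs, so the mix of cultures differs from that at P2.

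**Figure D3:**
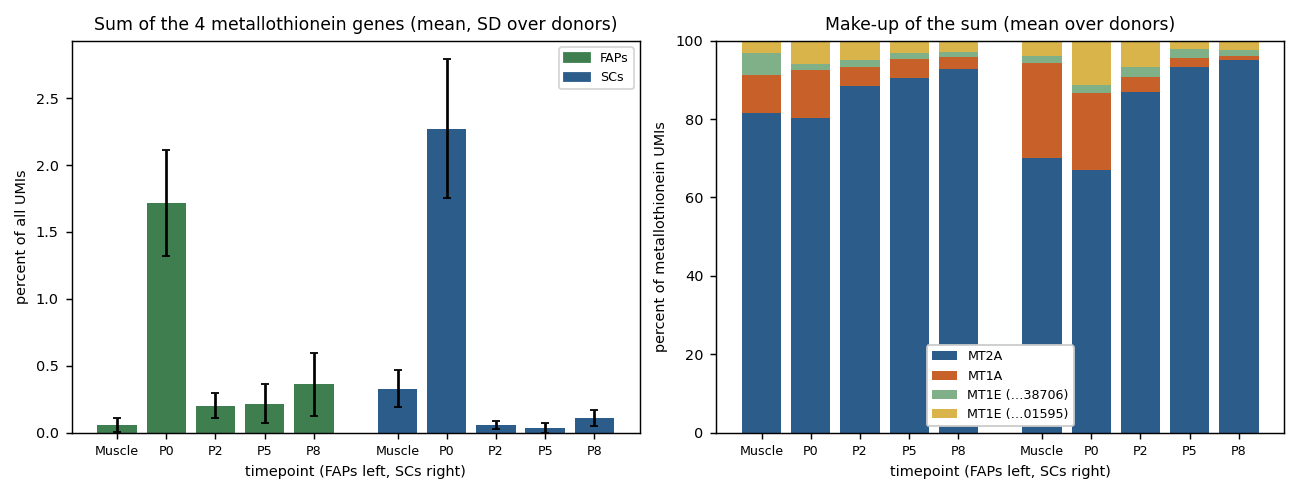
Left, the 4 metallothionein genes as a percent of all UMIs in FAPs (green) and SCs (blue) at each timepoint, bars the mean over donors and lines the SD; right, the percent of metallothionein UMIs from each gene, mean over donors. P0 stands highest in both types (1.72% and 2.27%), and MT2A makes up 66.9% to 95.1% of the pool.

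The pool also changed in make-up, with a larger mean share of MT2A at later passages. In SCs MT2A made up 70.1% of metallothionein UMIs at Muscle, 66.9% at P0, 86.99% at P2, 93.4% at P5 and 95.1% at P8, while MT1A went from 24.3% and 19.8% to 3.81%, 2.23% and 1.09%. Donors of muscle varied widely, from 31.5% to 87.8% for MT2A and from 7.49% to 64.4% for MT1A in SCs. In FAPs MT2A made up 81.5%, 80.2%, 88.5%, 90.6% and 92.8%. The FAP ranges over donors overlapped, with 62.6% to 94.7% at Muscle and 81.4% to 96.8% at P8. MT1E-b peaked at P0, with 11.4% ± 3.55 in SCs and 6.02% ± 2.45 in FAPs.

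The first comparison outside the rule that chose the members was the age of the donor. FAPs of calf muscle had less MT2A than FAPs of adult muscle. The 5 calves had 68.2, 76.3, 105, 137 and 263 CPM, and the 5 adults 409, 440, 694, 1097 and 1154 CPM, on the scale of all 159 sums. Every calf lay below every adult. Scaled within this comparison, the means were 149 ± 95.6 and 858 ± 396 CPM, the log2 fold change was -2.53 (SE 0.47) and the adjusted p 0.0266. MT1E-b was also lower in every calf, with 1.70, 2.36, 3.95, 8.32 and 8.97 CPM in calves and 15.2, 21.6, 25.1, 28.7 and 44.7 CPM in adults. These calf values rest on only 1 to 20 UMIs per donor, and MT1E-b passed the count filter through the adults alone, so its fitted log2 fold change of -2.29 (SE 0.40, adjusted p = 0.00564) is not counted as support. The fit with no filter gave -2.27 (adjusted p = 1.02e-06) on the same few UMIs, so it is not counted as support either.

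In this comparison 1.32% of 6158 genes were called, 0.747% lower in calves, and 2.6% lay lower in calves with no overlap. MT1A had a log2 fold change of -1.24 (SE 0.79, adjusted p = 0.49) and ATOX1 one of 0.13 (SE 0.18, adjusted p = 0.784). MT1E-a and SLC30A1 did not pass the count filter. MT1E-a, with 5 to 17 UMIs per calf, passed it without donor 1, 2, 4, 7 or 10 and was then called lower in calves, with log2 fold changes between -2.05 and -1.62 and adjusted p between 0.00973 and 0.0366. It passed it without donor 5 as well and was not called (-1.76, adjusted p = 0.065). With no filter MT1E-a was called (-1.82, adjusted p = 9.19e-05) and SLC30A1 was not (-1.34, adjusted p = 0.181). The calf counts of MT1E-a are low and it failed the filter with all donors, so its calls are not counted as support. With the sex of the donor as a covariate MT2A kept -2.57 (adjusted p = 0.0476) and MT1E-b, with the limit given above, -2.34 (adjusted p = 0.00843). The MT2A call was lost when donor 1, 2, 3, 5, 6, 7 or 10 was left out, with an adjusted p of up to 0.0749 and a log2 fold change between -2.94 and -2.35. Without donor 6, an adult, MT1E-b dropped below the count filter.

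The shares of cells with an MT2A UMI rest on the same donors and cells as the fit, so they are given as a description. An MT2A UMI was found in 15.5% ± 5.94 of thinned calf FAPs (10.0% to 25.5% over donors) and in 36.4% ± 12.1 of thinned adult FAPs (27.7% to 55.1%), which did not overlap. MT2A was unevenly spread among FAPs, the 10% of cells of a donor with most of it holding between 51.4% and 91.1% of its MT2A UMIs. Calf FAP sums held 530348 to 2268755 UMIs and 96 to 350 cells, adult sums 270458 to 860358 UMIs and 52 to 130 cells. The 4 SC markers summed to between 20.0 and 78.7 CPM in calf FAPs and between 26.2 and 65.1 CPM in adult FAPs, the 4 FAP markers to between 21230 and 27570 and between 21000 and 24360 CPM, and the dissociation response genes to between 3626 and 9903 and between 3427 and 7044 CPM. The 4 muscle fibre markers were higher in calf FAPs, at 924 to 1067 against 656 to 855 CPM, and their part in the result was not tested.

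**Figure D4:**
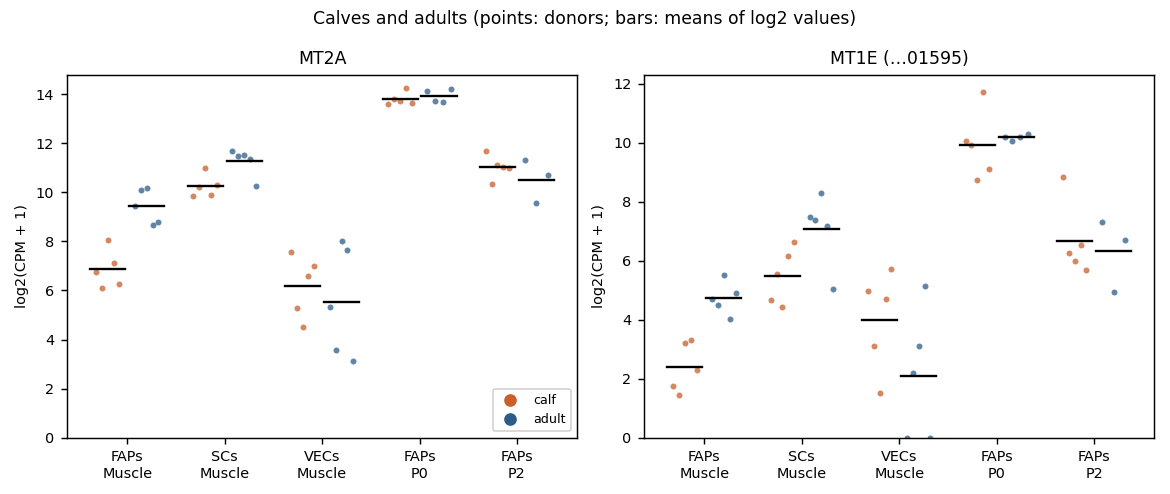
MT2A and MT1E-b (the gene whose identifier ends in the digits shown) in calves (orange) and adults (blue), each point 1 donor as log2(CPM + 1) and bars the mean of the log2 values, in FAPs, SCs and VECs of muscle and in FAPs at P0 and P2. Calf and adult FAPs of muscle are apart for both genes (MT2A at most 263 against at least 409 CPM), and the points of FAPs at P0 and P2 mix.

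In SCs of muscle, in FAPs and SCs at P0 and in FAPs at P2, no member was called between calves and adults by edgeR or DESeq2 with the count filter. Without it edgeR called MT1E-a in SCs of muscle (log2 fold change -1.28, adjusted p = 0.0126). SCs of muscle had MT2A at 912, 955, 1198, 1266 and 2041 CPM in calves and 1222, 2659, 2840, 2946 and 3302 CPM in adults, a log2 fold change of -1.05 (SE 0.31, adjusted p = 0.456), where 0.0963% of 4155 genes were called. MT2A and both MT1E genes had an unadjusted p below the threshold there, 3 of 5 members tested, each lower on average in calves. In VECs of muscle neither of the 2 members tested was called, with log2 fold changes of 0.25 for ATOX1 and -0.21 for MT2A. There 0.796% of 4522 genes were called. MT2A was read as background in these cells, so nothing is read from its value. SMMCs had enough UMIs only for ATOX1, with -0.08 (SE 0.22, adjusted p = 0.905), where 0.846% of 2246 genes were called. FAPs at P0 had means of 13100 and 14360 CPM and -0.13 (SE 0.16, adjusted p = 0.975), SCs at P0 -0.21 (SE 0.20, adjusted p = 0.734) and FAPs at P2 0.40 (SE 0.38, adjusted p = 0.96), and in these 3 comparisons 0 of all genes were called by edgeR and 8, 6 and 1 by DESeq2, with 0 members at an unadjusted p below the threshold. The comparisons of SCs, VECs and SMMCs of muscle and of FAPs at P2 were added after the levels had been seen.

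Whether the effect of age itself differed was tested on differences of log2(CPM + 1) within a donor, 6 tests in all, by exact 2-sided permutation of the age labels. MT2A in FAPs minus SCs of muscle was -3.40 in calves and -1.83 in adults (exact p = 0.00794, adjusted p = 0.0317). P0 minus Muscle in FAPs was 6.94 in calves and 4.67 in adults, a larger difference in calves (exact p = 0.0159, the smallest that 5 against 4 allows, adjusted p = 0.0317). The other 4 tests are not given here, since they rest on the few MT1E-b UMIs of calf FAPs or on VECs of muscle, which were at the level taken as background. These tests were added after the levels had been seen, on the 2 members called in FAPs. All of them hold the same FAP values of muscle, so they are not independent of that call and no conclusion is drawn from them.

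Cells named FAPs came from all 3 kinds of culture, and MT2A was compared between them. At P5 the sorted FAP cultures had 261, 489 and 1109 CPM, the unsorted cultures 2472, 2507 and 4795 CPM, and the cells named FAPs in sorted SC cultures 2180, 2671 and 4940 CPM. The FAP cultures lay below both others. At P8 they had 1421, 1568 and 1862 CPM, the unsorted cultures 2414, 2855 and 5570 CPM and the SC cultures 4384, 5247 and 9540 CPM, again with the FAP cultures lowest. At P2 the values mixed, with 750, 2008 and 2226 CPM in FAP cultures, 1299, 1654 and 2542 CPM in unsorted cultures, and 2071 and 3330 CPM in the 2 SC cultures with enough FAPs (12 and 19 cells).

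MT2A in FAPs of SC cultures against FAP cultures was called higher at P5, with a log2 fold change of 2.38 (SE 0.67, adjusted p = 0.0437), and at P8, with 1.95 (SE 0.30, adjusted p = 0.0348). It was the single member called of 6 at P5, near the share of all genes called there, so nothing is read from that count. In all, 15.9% of 11517 genes were called at P5, 7.99% higher in SC cultures, and 1.75% of 9911 at P8, 0.696% higher, while 25.7% and 12.4% lay higher with no overlap. At P5 the call was lost without donor 4, 5 or 8 (adjusted p up to 0.152), and with no filter on low counts (adjusted p = 0.085), and at P8 without donor 7, 8 or 10 (adjusted p up to 0.166). ATOX1 went the other way at P5, with 252, 358 and 371 CPM in SC cultures and 489, 525 and 552 CPM in FAP cultures (log2 fold change -0.68, SE 0.14, adjusted p = 0.0041, below the fold threshold), where 27.8% of genes lay lower with no overlap. At P5 MT1A had -1.78 (SE 0.80, adjusted p = 0.146), opposite in sign to MT2A, and DESeq2 called it lower (-2.13, adjusted p = 0.031). MT1E-a and MT1E-b had 1.13 (SE 0.67) and 1.61 (SE 0.88), with adjusted p of 0.234 and 0.217. At P5 the SC-culture sums held 31 to 593 cells and 885831 to 16198981 UMIs. The FAP-culture sums held 1172 to 1437 cells and 24225286 to 30877722 UMIs. Over all cultures the 4 FAP markers in cells named FAPs ran from 7788 to 51870 CPM at P5, and their part in these differences was not tested.

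FAP cultures against unsorted cultures gave no called member by edgeR at P2, P5 or P8. At P5 MT2A had -2.40 (SE 0.58, adjusted p = 0.0757), MT1E-a -2.39 (SE 0.50, adjusted p = 0.0614) and MT1E-b -2.72 (SE 0.52, adjusted p = 0.0522), each without overlap, where 16.3% of 11687 genes lay lower with no overlap and 1.04% were called, and DESeq2 called these 3. At P8 MT2A had -1.16 (SE 0.31, adjusted p = 0.895) and no overlap, where 5.14% of 9950 genes lay lower with no overlap and 0.0201% were called. At P2 MT1A had -0.95 (SE 0.14, adjusted p = 0.188) and MT1E-b -1.24 (SE 0.34, adjusted p = 0.361), each without overlap, where 9.13% of 11786 genes lay lower with no overlap and 0.017% were called, and DESeq2 called MT1E-b (adjusted p = 0.0194). Of the 6 members, 3 at P2, 5 at P5 and 2 at P8 had an unadjusted p below the threshold. Each kind of culture came from other donors and grew on another coating, so sorting, coating and donor cannot be told apart, and the P5 and P8 comparisons were added after the levels had been seen.

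In SCs at P2, sorted SC cultures against unsorted cultures gave MT2A at 178, 188 and 1193 CPM against 572, 639 and 676 CPM. Donor 10 alone was high, and the log2 fold change was -0.34 (SE 0.77, adjusted p = 0.798), where 7.51% of 11378 genes were called. Without donor 10 it was -1.88 (adjusted p = 0.0108), which would be called. No member was called with all donors by edgeR or DESeq2, and 0 had an unadjusted p below the threshold.

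**Figure D5:**
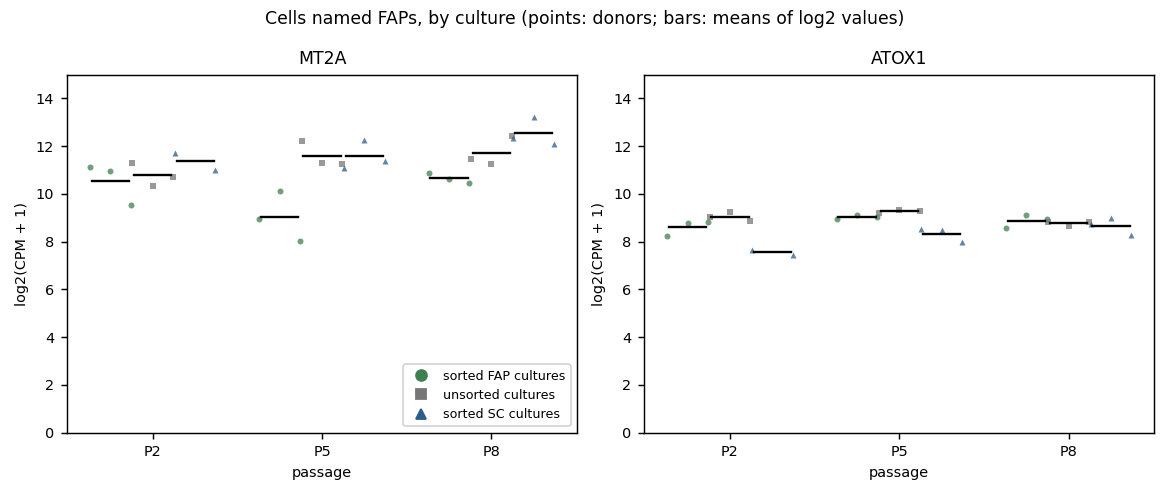
MT2A and ATOX1 in cells named FAPs at P2, P5 and P8, each point 1 donor as log2(CPM + 1) in sorted FAP cultures (green circles), unsorted cultures (grey squares) and sorted SC cultures (blue triangles), bars the mean of the log2 values. The FAP cultures lie lowest for MT2A at P5 (261 to 1109 CPM) and P8 (1421 to 1862 CPM), and the SC cultures lie lowest for ATOX1 at P2 and P5.

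ATOX1 was lower in FAPs in S or G2M phase than in FAPs in G1. At P0 the cycling cells had ATOX1 at 186 ± 25.5 CPM (163 to 243) and cells in G1 at 311 ± 32.7 CPM (263 to 361), lower in 9 of 9 donors with no overlap (log2 fold change -0.74, SE 0.08, adjusted p = 5.64e-08). SLC30A1 was also lower in cycling FAPs, at 8.64 against 13.4 CPM (log2 fold change -0.58, SE 0.15, adjusted p = 0.00382), with overlap. Neither reached the fold threshold, so 0 members were called by edgeR or DESeq2, and 3 had an unadjusted p below the threshold, where 5.07% of 10214 genes were called and 2.1% lay lower with no overlap. MT2A had -0.03 (SE 0.12, adjusted p = 0.878), and the other metallothioneins between -0.66 and -0.55 (adjusted p of 0.0802 or more), each lower in cycling cells in 9 of 9 donors. With the donor as a block, which pairs the cells of a donor, MT1A (-0.50, adjusted p = 0.00294), MT1E-a (-0.65, adjusted p = 1.88e-08) and MT1E-b (-0.54, adjusted p = 0.00161) passed the p threshold but not the fold threshold, and MT2A passed neither (adjusted p = 0.618). In SCs at P2 ATOX1 had -0.29 (SE 0.12, adjusted p = 0.103) and MT2A 0.00 (SE 0.45), 1 member having an unadjusted p below the threshold and 0 being called by edgeR or DESeq2. With the block ATOX1 had -0.32 (adjusted p = 0.00152). As a background, 4.88% of 8672 genes were called. Cells of the 2 phases came from the same donors and libraries, and the phases had been assigned from the same expression values. The sums differed in size, with 8826040 to 19620369 UMIs in cycling FAPs at P0 and 1440323 to 4162436 in G1. In SCs at P2 the sums went down to 13 cells.

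A wider set held 48 metal genes beside the members: 3 regulators, MT3 and MT4, 9 zinc exporters of the SLC30 family, 14 zinc importers of the SLC39 family, 4 copper carriers, 7 copper chaperones and assembly factors and 9 copper enzymes. From Muscle to P0 in FAPs, 33 of them could be tested, of which 3 rose and 10 fell, 39.4% against 43.4% of all genes, with a median log2 fold change of -0.27 against 0.03 for all genes. In SCs 1 of 18 rose and 2 fell, 16.7% against 34.3% of all genes (median -0.38 against -0.01), and 5 were called with the donor as a block. In VECs 2 of 20 rose and 5 fell, 35% against 35.1% (median -0.29 against -0.02).

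MTF1, the zinc sensor that drives metallothionein genes, was at 10.6 ± 4.40 CPM in FAPs of muscle and 10.3 ± 0.614 CPM at P0 (log2 fold change -0.10, SE 0.16, adjusted p = 0.752). NR3C1, the glucocorticoid receptor, fell in the 3 types tested, with log2 fold changes of -1.76 (SE 0.14) in FAPs, -1.39 (SE 0.13) in SCs and -2.29 (SE 0.14) in VECs, each with no overlap. NFE2L2, the oxidative stress regulator, had -0.70 (SE 0.09) in FAPs, -0.61 (SE 0.13) in SCs and -0.05 (SE 0.13) in VECs and passed the fold threshold in none. In calf against adult FAPs of muscle NR3C1 was at 318 ± 22.4 against 204 ± 49.0 CPM, with no overlap (log2 fold change 0.65, SE 0.15, adjusted p = 0.0287, below the fold threshold), opposite in direction to MT2A.

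MT3, a metallothionein that lies beside the others but is known mainly from brain, had its own pattern. It was at 247 ± 71.0 CPM in LECs, 224 ± 137 CPM in SCs and 4.10 ± 8.54 CPM in FAPs of muscle, and at P0 at 1553 ± 312 CPM in LECs (1127 to 1950), 83.7 ± 34.9 CPM in SCs and 36.1 ± 24.9 CPM in FAPs. From Muscle to P0 it rose in FAPs (log2 fold change 3.69, SE 0.77, adjusted p = 0.000229) and fell in SCs (-1.88, SE 0.35, adjusted p = 0.000109), with overlap in both. The FAP level of muscle was close to the limit of detection, and the part of free RNA in the P0 level was not tested. From P0 to P2 MT3 fell in SCs (-3.99, SE 0.48) and in FAPs (-1.72, SE 0.60). From Muscle to P0 in SCs its direction was thus opposite to that of the 4 metallothionein members.

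Among zinc carriers SLC39A14, a zinc importer of the plasma membrane, rose from Muscle to P0 in FAPs (log2 fold change 1.43, SE 0.17), SCs (2.68, SE 0.28) and VECs (1.78, SE 0.19), with no overlap, and fell in SCs from P0 to P2 (-1.47, SE 0.18). SLC39A7 rose in VECs (1.24, SE 0.13). SLC30A3, an exporter of vesicles, fell in FAPs (-6.94, SE 0.44), from 22.1 ± 15.6 to 0.153 ± 0.109 CPM, as did the importers SLC39A13 (-1.70, SE 0.13) and SLC39A10 (-1.40, SE 0.10). At P5 cells named FAPs had less SLC39A8 (-2.20, SE 0.54) and SLC39A4 (-1.81, SE 0.33) in SC cultures than in FAP cultures, and the antioxidant copper enzyme SOD3 was lowest (-3.21, SE 0.75). There 6 of 38 list genes were called, all lower, 15.8% against 15.9% of all genes, so nothing is read from the count. In SCs at P2, SC cultures had less SLC39A4 (-1.25, SE 0.30), SLC31A2 (-1.20, SE 0.16), SLC39A14 (-1.04, SE 0.23) and LOXL3 (-1.19, SE 0.31) than unsorted cultures, the 4 called of 37, 10.8% against 7.51% of all genes. These calls rest on single donors, since without donor 1 edgeR called 1 of 12183 genes and 0 list genes, without donor 9 it called 109 genes and 0 list genes, and without donor 5 it called 298 genes and 1 list gene, against 855 genes with all donors. SLC30A3 was also the single list gene of 26 called in calf against adult FAPs of muscle, at 12.2 ± 6.17 against 35.1 ± 16.1 CPM (log2 fold change -1.49, SE 0.36, adjusted p = 0.0301), with overlap, 3.85% against 1.32% of all genes. Without donor 3, 5, 6 or 8 no list gene was called there, and without donor 7 there were 2.

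Among copper genes, ATP7A, the pump that ATOX1 serves, fell in VECs (-1.89, SE 0.16), from 125 ± 40.8 to 33.3 ± 7.70 CPM with no overlap, where ATOX1 was higher. LOXL2, a lysyl oxidase, also fell in VECs (-1.54, SE 0.19). In FAPs SCO2, which helps to load copper into cytochrome oxidase, rose (1.11, SE 0.13). The copper importer SLC31A1 had 0.43 (SE 0.09) in FAPs and ATP7A -0.56 (SE 0.12), both below the fold threshold. Among the lysyl oxidases, copper enzymes that cross-link collagen, LOXL4 (-4.26, SE 0.26) and LOXL2 (-2.26, SE 0.16) fell in FAPs from Muscle to P0. From P0 to P2 in FAPs 6 of 36 list genes rose and 1 fell, among them LOXL4 (2.96, SE 0.22), LOX (2.31, SE 0.34) and the zinc importer SLC39A4 (2.25, SE 0.27), 19.4% against 19.3% of all genes. In SCs LOX (1.61, SE 0.47) and LOXL1 (1.07, SE 0.13) rose and MT3 and SLC39A14 fell, 4 of 32 or 12.5% against 10% of all genes. From P2 to P5 in SCs 0 of 32 list genes were called by edgeR or DESeq2 and 4 had an unadjusted p below the threshold, where 0.44% of all genes were called, and from P2 to P8 in FAPs 0 of 35 were called and 7 had one, where 1.19% of all genes were called.

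Across all 159 sums the metallothioneins resembled each other most. The Pearson correlation of log2 CPM was between 0.846 and 0.915 for every pair of MT1A, MT1E-a, MT1E-b and MT2A, and ANP32B (0.822) and HSP90AB1 (0.798) came next for MT2A among 7964 genes. PA2G4 (0.738) was among the 5 nearest to MT1A, and CENPS (0.799) and SNRPD1 (0.784) among those of MT1E-b. ATOX1 was nearest to KIF5B (0.821), EPN1 (0.813), ATP6V1F (0.813), UBXN4 (0.811) and TUBB6 (0.81), and to MT2A at 0.536. SLC30A1 was nearest to PPP1R8 (0.625), EXO5 (0.589), PCK2 (0.572), RAB1A (0.57) and NCBP1 (0.546), and to MT2A at 0.248. The sums share 5 libraries, their depth and their donors, so these values are a description.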

How the data were processed

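Single-cell RNA-seq libraries (10x, 3′ ends) of 5 timepoints had been processed with Cell Ranger 6.0.1 against ARS-UCD1.2, per the submitters' processing notes. The raw UMI count matrices and a table of cells were deposited by the authors, who had assigned each cell to a donor by genotype, removed cells of outlying depth, gene number or mitochondrial share, and given it a cell type and a cell cycle phase. Each cell of that table carries 1 donor. No doublet caller was run, so doublets within a donor may remain. These names were used as deposited, 66 other columns of the cell tables were not used, and neither was the combined table of corrected values.

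Raw UMIs of 36129 cells were summed per donor, cell type and timepoint with at least 10 cells, and donors were the replicates. Comparisons were fitted over all genes that passed filterByExpr with TMM scaling and edgeR 4.0.16's quasi-likelihood test (R 4.3.3), with Benjamini-Hochberg adjustment over all genes tested, after the code had been tested on simulated data. DESeq2 1.42.0, no count filter, at least 30 cells, thinned sums, the sex of the donor, the donor as a block and leaving out each donor were alternatives. Single values were compared by exact permutation (Python 3.11.15, scipy 1.17.1, numpy 2.4.6, pandas 2.3.3) on log2(CPM + 1). Shares of cells used cells thinned to 2000 UMIs, without shallower cells. Counting limits cover sampling of UMIs only.

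The members and gene lists were chosen with earlier results of these data known. Besides the members, the text names at most 3 called metal genes per direction and comparison, 3 regulators, zinc and copper carriers, and the 5 genes most correlated with each member (prior count 2, mean of at least 10 CPM). Age, sex and kind of culture came from the study's account of the donors. The same animals recur across timepoints, so donor numbers pair samples. The correlation of their deviations ran from -0.44 to 0.864 between timepoints and from 0.35 to 0.926 between cycling and G1 cells.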

Additional observations from a re-analysis of the deposited data

Results flagged for a closer look

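Single donors stood apart from the rest of their group in 24 of 114 groups of 4 to 10 donors, by the gap to the nearest donor over the whole range. For normally distributed values chance flags about 1 in 20 such groups, but sums of a few UMIs are not so distributed, and the rate for them was not measured. All values are CPM.

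Some of these values rested on very few UMIs or on 1 cell. In muscle, donor 7 stood high in B/T/NK cells for MT1A (557.9, with 61 of 61 UMIs in 1 of 20 cells) and MT2A (1116, with 102 of 122 UMIs in 1 cell), and donor 9 in SCs for MT1A (2496, with 368 of 390 UMIs in 1 cell). Donor 8 stood high in LECs for MT1E-b (236.1, 16 of 21 UMIs in 1 cell), in SMMCs for MT2A (132.7, 20 of 24 UMIs in 1 cell), in VECs for MT1A (42.24, 10 of 16 UMIs in 1 cell) and in monocytes/macrophages for MT1E-b (8.821, 1 UMI). Donor 9 stood high in monocytes/macrophages for MT1A (19.48, 3 UMIs), and donor 4 was lowest for MT1A in LECs (0.0). SLC30A1 stood high in LECs of donor 7 (10.58, 1 UMI), VECs of donor 3 (36.0, 10 UMIs) and, at P2, FAPs of donor 10 (15.99, 6 UMIs). At P2 donor 10 also stood high in FAPs for MT1E-b (455.6, 147 of 171 UMIs in 1 of 12 cells), and at P5 donor 4 in SCs for MT1A (22.04, 3 UMIs).

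Others rested on more UMIs. Donor 5 stood high in FAPs at P0 for ATOX1 (304.1), MT1A (6324) and MT1E-b (3372), and in FAPs at P8 for MT1E-b (385.3). Donor 2 stood high in FAPs for MT1A at P5 (312.9) and P8 (312.8) and for SLC30A1 at P8 (18.67). Donor 10 stood high in SCs at P2 for MT2A (1193), donor 6 in FAPs of muscle for MT1A (130.8, 49 of 120 UMIs in 1 of 130 cells) and donor 4 in monocytes/macrophages at P0 for ATOX1 (857.5, 26 of 116 UMIs in 1 of 14 cells).

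The effect of age was compared between cell types or timepoints by exact permutation on log2(CPM + 1). For MT2A, calf minus adult differed by -1.57 between FAPs and SCs of muscle and by 2.28 between P0 and Muscle in FAPs. For MT1E-b it differed by 2.11 between P0 and Muscle in FAPs, but this rests on 1 to 20 UMIs per calf in muscle and holds the muscle contrast itself, so it is not read. The 2 genes had been picked because they were called by age in FAPs of muscle, and each test holds those same values. The differences are thus not independent of that call, and no conclusion is drawn from them.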

How the results depend on the processing

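Over the alternatives run, 996 of 1020 member log2 fold changes were counted as unchanged, 14 lost a call, 8 gained one and 2 untested ones moved beyond the spread. Tested values were counted as unchanged when they kept their side of the threshold. Values between timepoints, which were not tested, were so counted when their shift was smaller than the spread over donors. Of the 1020, 0 were counted as reversed, but a change of sign alone did not count. Signs did turn among values that were not called. With a donor left out, MT1A in FAPs of FAP against unsorted cultures at P8 went from -1.17 to as high as 0.33. With the donor as a block, MT1E-a in cycling against G1 SCs at P2 went from -0.16 to 0.14. Of 202 counts of calls 25 moved, of 216 levels 7 and of 13 shares 7. With no count filter the metal genes called were 20 in FAPs, 10 in SCs and 15 in VECs from Muscle to P0 and 7 in SCs from P0 to P2, 1 member was called by age in SCs of muscle (MT1E-a) and 0 in FAPs of SC against FAP cultures at P5. With sums thinned to the smallest total the metal genes called were 8 in FAPs from Muscle to P0, and 1 in FAPs and 1 in SCs from P0 to P2. With at least 30 cells, and with the donor as a replicate block, 5 were called in SCs from Muscle to P0, and the block moved no other count of metal genes or members called by over 1.5 times. Over all genes the block called 231 in SCs from P2 to P5, against 43 without it. DESeq2 called 1 member in FAPs of FAP against unsorted cultures at P2, 3 at P5, and 2 in SC against FAP cultures at P5. With at least 30 cells the mean levels in CPM were 1207 for ATOX1 in VECs at P0, 57.43 for MT1E-a, 418.8 for MT1E-b and 12220 for MT2A in LECs at P0, 99.99 for MT1E-a in SMMCs at P0 and 7.527 for MT1E-b in B/T/NK cells of muscle. With raw totals SLC30A1 was at 8.129 in FAPs at P5. Without thinning an MT2A UMI was found in 91.06%, 81.05% and 96.87% of FAPs and 80.67%, 63.42% and 95.45% of SCs at P2, P5 and P8, and in 23.08% of B/T/NK cells of muscle. Leaving out each donor in turn, the members called ranged from 0 to 3 for age in FAPs of muscle, from 0 to 1 for cultures in SCs at P2, and, for SC against FAP cultures in FAPs, from 0 to 2 at P5 and from 0 to 1 at P8. The causes were not tested. Depth limits SLC30A1, with at most 12 UMIs in any sum of muscle, and the MT1 genes in muscle, where sums of some types hold a few UMIs. SC values at P8 rest on 4 donors, and culture comparisons on 3 donors a group.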
